A study of Mus musculus with 6 samples.

Results

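The genes described here are 47 genes of cell adhesion to matrix and of the mesenchymal state. Among them are integrin subunits, laminin chains, collagens and other matrix proteins, and genes of transforming growth factor beta (TGF-beta) signalling. Others encode mesenchymal transcription factors and proteins of actin filaments and of their link to integrins. The genes were chosen as a list of symbols, and each was read through its brightest probe set that names a single gene. Of the 47, 39 were tested, out of 10271 genes tested in all. SNAI1, ZEB1, CDH2 and ITGB3 had a probe set but lay under a mean log2 intensity of 4, and ITGB6, LAMA3, COL17A1 and FLNA were not analysed here because no probe set named them alone. The arrays held RNA of subcutaneous NCI-H2228 tumours of SCID mice, taken 6 h after an oral dose of vehicle, of 4 mg/kg or of 20 mg/kg of CH5424802. NCI-H2228 is an established line of human lung adenocarcinoma with the EML4-ALK fusion kinase (the labels list mouse, the host, as the organism, and the probe sets carry human gene names), and CH5424802 (alectinib) inhibits ALK. SCID mice lack T and B cells of their own but keep fibroblasts, vessels and myeloid cells. There were 6 arrays, 2 in each of the 3 groups, and the labels do not say whether the arrays of a group came from separate animals, so a p-value speaks only for the spread of these arrays, part or all of which can be technical.

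Integrins are receptors made of an alpha and a beta subunit that bind matrix proteins outside the cell and, through talin, vinculin and alpha-actinin, the actin skeleton inside. Laminins and type IV collagen build the basement membrane under epithelial cells, while fibronectin, tenascin, SPARC and fibrillar collagens belong to the matrix of connective tissue. In the epithelial-mesenchymal transition, factors of the SNAIL, TWIST and ZEB families, often under TGF-beta, lower epithelial genes and raise mesenchymal ones such as vimentin and N-cadherin.

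Values are log2 of intensities that the authors had normalized, and a difference of 1 is a doubling. The lowest intensity in every array was 4.578, a floor of 2.19 on the log2 scale. The first principal component ran from -34.8 for vehicle replicate 2 and -18.9 for replicate 1, over 3.50 and 4.59 at the lower dose, to 21.9 and 23.7 at the higher, so vehicle replicate 2 stood furthest out. The control probe set for 18S ribosomal RNA also read higher with vehicle, between 1713 and 4058, than in the treated arrays, between 374 and 637. The ratio of 3' to 5' control signal, a sign of RNA quality, ran from 0.988 to 1.07 for actin and from 0.844 to 0.993 for GAPDH. The part of the 18S difference in the results was not tested. All 10 epithelial markers passed the level filter, among them EPCAM and NKX2-1, the latter a lung lineage factor. Their summed intensity was 96570 and 107300 with vehicle, 102500 and 104700 at 4 mg/kg, then 86120 and 93110 at 20 mg/kg, which were the lowest. The epithelial keratin KRT18 fell at 20 mg/kg (log2 -1.54, adjusted p = 0.0416), and the other 9 epithelial markers did not pass. The lower sum followed the keratins, with log2 -0.92 for KRT7, -0.88 for KRT8 and -0.34 for KRT19, all with the 20 mg/kg arrays below vehicle. EPCAM and the E-cadherin gene CDH1 lay above both vehicle arrays at 20 mg/kg, by log2 0.50 and 0.23, and EPCAM also at 4 mg/kg, by 0.58.

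Many matrix genes of the list are also made by fibroblasts, which in these tumours belong to the mouse, and how mouse RNA reads on this human array was not measured. Of 10 fibroblast markers, 6 passed the level filter, led by COL1A1 at a mean log2 of 15.04, COL1A2 at 10.92 and COL3A1 at 10.27. The other 4 were at or near the floor, with means of 2.24 for LUM, 2.20 for PDGFRA, 2.19 for PDGFRB and 2.20 for THY1. DCN, which passed the filter, read exactly 5.98 in all 6 arrays. The summed fibroblast level was 36940 and 39760 with vehicle, 37920 and 36750 at 4 mg/kg, then 36310 and 40670 at 20 mg/kg, so the groups overlapped. COL1A1 dominated this sum, and 3 of the other markers did separate groups, without passing. FAP, a fibroblast protease, read 9.35 and 9.73 with vehicle, 8.81 and 8.999 at 4 mg/kg, then 9.42 and 9.26 at 20 mg/kg, so it lay lowest at 4 mg/kg (log2 -0.63, adjusted p = 0.218). COL3A1 and POSTN lay above both vehicle arrays at 20 mg/kg, by log2 0.30 and 0.22. Of 7 endothelial markers 2 passed the filter, PECAM1 and KDR, with summed levels between 459.4 and 566. Of the 6 macrophage and leukocyte markers measured 2 passed, ITGAM and LYZ, with sums between 104.1 and 108. ITGAM had the same intensity, 26.11, in all 6 arrays, and LYZ 51.64 in every array but vehicle replicate 1, at 51.93. The even sums therefore do not show a steady leukocyte content. CDH5, VWF and TEK, defining endothelial genes, and PTPRC, CSF1R and CD163, defining leukocyte genes, had mean log2 values of 2.21, 2.19, 2.20, 2.51, 2.32 and 2.19. A lower level of any gene below may mean fewer cells of a type or less RNA per cell, which cannot be told apart in whole tumours.

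Each dose was set against the same vehicle arrays, so the comparisons share them. Against vehicle, 20 mg/kg lowered the matrix protein gene THBS1 and the adhesion plaque gene VCL, and the other 37 tested genes of the list did not pass (limma, Benjamini-Hochberg over all genes, threshold 0.05). That is 5.13% of the list, all of it lower, beside 4.33% of all tested genes (2.26% higher and 2.07% lower), so the share called was near the background. At 4 mg/kg none of the 39 passed, beside 0.0584% of all genes (0.0292% each way), and 15 had an unadjusted p under 0.05. Between the doses none passed, beside 0.370% of all genes (0.127% higher and 0.243% lower), and 17 had an unadjusted p under 0.05. In percent, an unadjusted p under 0.05 was met by 30.8 of the list and 24.2 of all genes for the higher dose against vehicle, by 38.5 and 17.0 for the lower dose, and by 43.6 and 13.4 for 20 against 4 mg/kg. The arrays of the 2 groups did not overlap for 25 of the 39 at 20 mg/kg against vehicle (7 higher and 18 lower), beside 50.4% of all genes (24.5% higher and 25.9% lower). At 4 mg/kg against vehicle 27 did not overlap (11 higher and 16 lower), beside 37.5% (22.8% higher and 14.8% lower), and between the doses 26 (9 higher and 17 lower at 20 mg/kg), beside 36.4% (13.6% higher and 22.8% lower). As shares of the list these are 64.1%, 69.2% and 66.7%. The genes of the list were brighter than most, with a median level of 11.34 against 8.63, and less often exactly tied between the arrays of a group (7.69% of the list and 32.3% of all genes had such a tie), and the part of either in these shares was not tested. The median difference was -0.09 for the list and 0.00 for all genes at 20 mg/kg, while at 4 mg/kg it was -0.02 for the list and 0.00 for all genes. The split of calls at 20 mg/kg was none higher and 2 lower. After quantile normalization it was 2 higher and 7 lower of the 39, beside 8.14% and 6.82% of all genes. With centred arrays it was 2 higher and 13 lower, beside 9.96% and 9.1%. Leaving out vehicle replicate 1, which keeps the vehicle array furthest from the rest, gave 2 higher (ITGAV and ITGB8) and 3 lower (ITGA3, ITGA5 and THBS1) at 20 mg/kg, beside 3.41% and 4.4% of all genes, and 2 higher (ITGA2 and ITGAV) and 2 lower (ITGA3 and ITGA5) at 4 mg/kg, beside 2.24% and 2.39%. Leaving out either array at 4 mg/kg or either at 20 mg/kg left none lower at 20 mg/kg, and leaving out vehicle replicate 2 left 1, ITGA5.

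**Figure D1:**
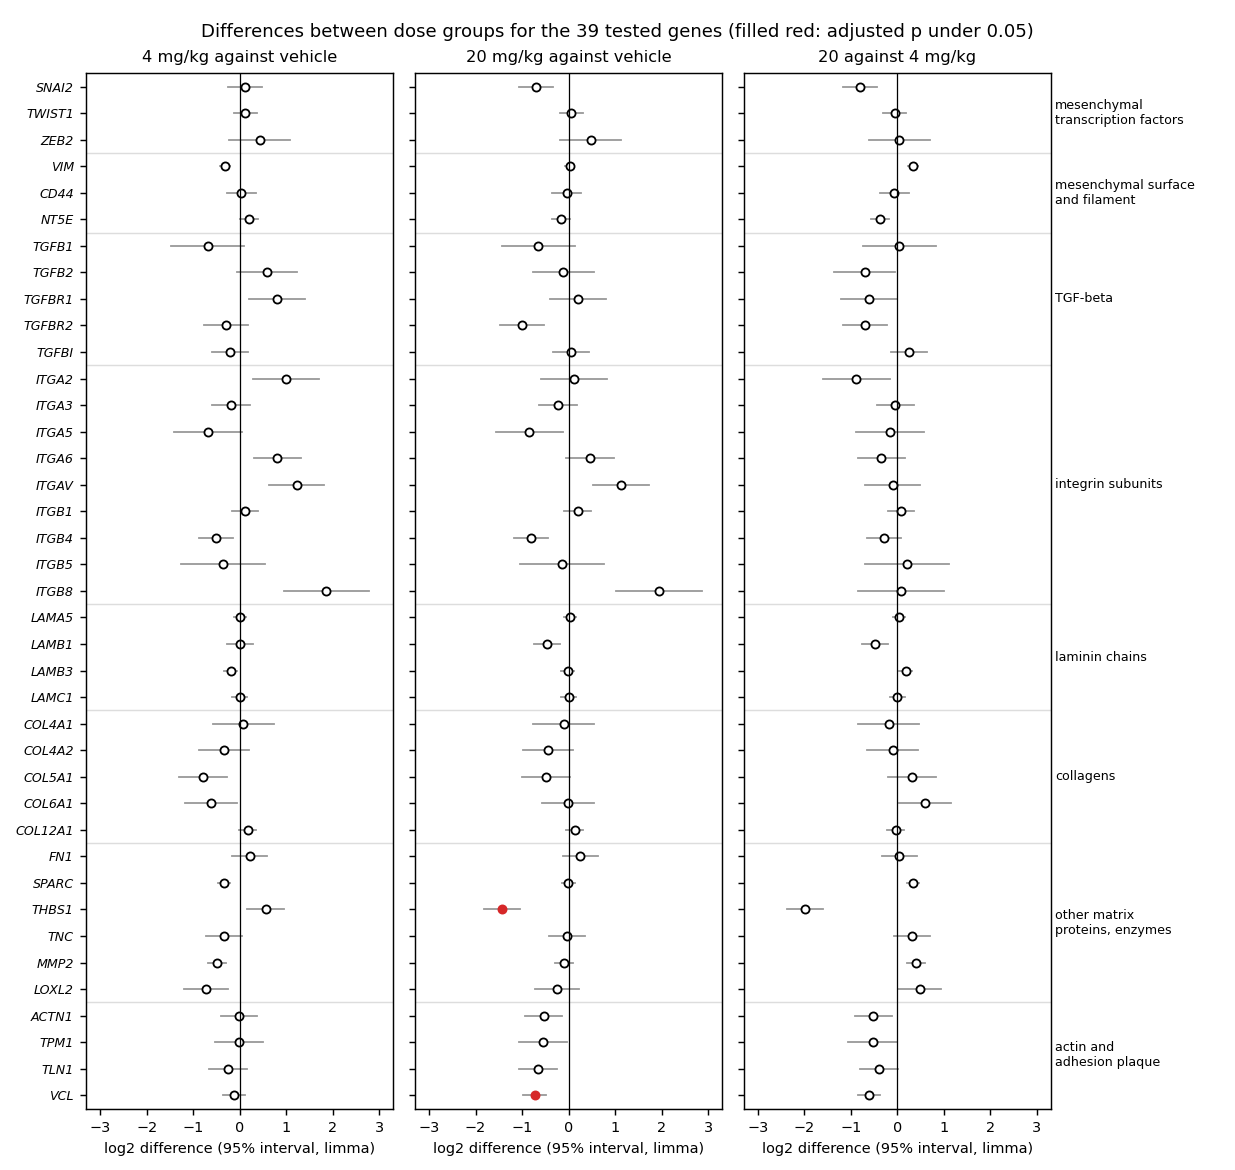
Log2 differences of the 39 tested genes (rows, grouped by role) for each dose against vehicle and for 20 against 4 mg/kg; points are differences of group means, bars are limma's unadjusted 95% intervals, and filled red points passed the adjusted threshold. THBS1 at -1.43 and VCL at -0.73, both at 20 mg/kg against vehicle, are the filled points, while ITGB8 lies furthest to the right against vehicle at both doses.

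Among the transcription factors of the mesenchymal state, the genes did not share an order over the doses. SNAI2, which encodes SLUG, a repressor of epithelial genes, read 9.73 and 9.75 with vehicle, 9.81 and 9.89 at 4 mg/kg, then 8.88 and 9.21 at 20 mg/kg. Both 20 mg/kg arrays lay below the other 4, and the difference from vehicle did not pass (log2 -0.70, SE 0.13, adjusted p = 0.0812), nor did that from 4 mg/kg (log2 -0.81, SE 0.13, adjusted p = 0.132). SNAI2 passed against vehicle with centred or quantile-normalized arrays and without genes tied in all groups, and ran from -0.86 to -0.53 over 16 alternatives. ZEB2, a related repressor, read 7.21 and 6.87 with vehicle, 7.33 and 7.61 at 4 mg/kg, then 7.30 and 7.74 at 20 mg/kg. Its treated arrays lay above both vehicle arrays by log2 0.48 at 20 mg/kg and log2 0.43 at 4 mg/kg, with only 0.07 and 0.00 on the next brightest probe set. TWIST1 read between 5.07 and 5.32 in all arrays and did not separate the groups. SNAI1, at the floor in all 6 arrays, and ZEB1, between 3.57 and 3.82, lay below the filter.

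Of the mesenchymal surface and filament genes VIM, CD44 and NT5E were measured above the level filter and CDH2 was not, and none passed. VIM, the intermediate filament vimentin, read 14.33 and 14.29 with vehicle, 13.97 and 14.02 at 4 mg/kg, then 14.36 and 14.31 at 20 mg/kg. The 4 mg/kg arrays were the lowest (log2 -0.32, SE 0.04, adjusted p = 0.137), and those at 20 mg/kg stood level with vehicle (log2 0.02, SE 0.04, adjusted p = 0.759, 95% interval -0.08 to 0.12). A second, much dimmer probe set of VIM gave -0.61 at 4 mg/kg and 0.50 at 20 mg/kg, but did not repeat this order of arrays. Its 4 mg/kg arrays read 3.76 and 5.096, on opposite sides of the vehicle arrays at 4.99 and 5.08. Its 20 mg/kg arrays, at 5.88 and 5.19, lay above both vehicle arrays. CDH2, or N-cadherin, which often accompanies vimentin, read 2.21 in all 6 arrays, next to the floor. CD44, the hyaluronan receptor, read between 13.45 and 13.70 on its brightest probe set, with overlapping groups and a difference of -0.04 at 20 mg/kg (95% interval -0.35 to 0.28). NT5E, the ectoenzyme CD73, read 10.65 and 10.59 with vehicle, 10.74 and 10.90 at 4 mg/kg, then 10.48 and 10.42 at 20 mg/kg, so the 20 mg/kg arrays were the lowest, though the difference did not pass (log2 -0.17). Its other probe sets above the filter gave -0.87 and -1.55 at 20 mg/kg, further from 0 than the brightest. At 4 mg/kg they gave -0.42 and -0.04, while the brightest gave 0.20, so the higher level there depends on the probe set.

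In the TGF-beta pathway the receptor subunits and ligands differed in their order over the doses, and none passed the test. TGFBR2, the receptor subunit that binds the ligand first, read 11.67 and 11.89 with vehicle, 11.29 and 11.65 at 4 mg/kg, then 10.86 and 10.70 at 20 mg/kg. The 20 mg/kg arrays were the lowest 2 of the 6 (log2 -0.995, SE 0.17, adjusted p = 0.0692), and the 4 mg/kg arrays lay between the other groups. TGFBR2 passed against vehicle with centred or quantile-normalized arrays, at a mean log2 of at least 6 and without genes tied in all groups. TGFBR1, the kinase subunit it recruits, was instead highest at 4 mg/kg, at 10.40 and 10.01 with vehicle, 10.90 and 11.13 at 4 mg/kg, then 10.23 and 10.58 at 20 mg/kg. Its difference was log2 0.81 (SE 0.21, adjusted p = 0.216) at 4 mg/kg and log2 0.20 at 20 mg/kg. The ligand gene TGFB2 was likewise highest at 4 mg/kg, at 8.06 and 8.02 with vehicle, 8.33 and 8.92 at 4 mg/kg, then 8.02 and 7.83 at 20 mg/kg. At 4 mg/kg it was log2 0.59 (SE 0.23, adjusted p = 0.338) from vehicle, though 1 of its other probe sets gave -0.19 at that dose. That set read 4.11 in every array but vehicle replicate 2, at 4.48, and the next brightest set gave 0.53. The ligand gene TGFB1 was higher with vehicle than in any treated array, at 9.20 and 9.51 with vehicle, 8.34 and 8.98 at 4 mg/kg, then 8.60 and 8.81 at 20 mg/kg. The 4 mg/kg arrays of TGFB1 differed from each other more than the treated groups did, and neither dose passed (log2 -0.65, SE 0.27, adjusted p = 0.274; log2 -0.69). TGFBI, a matrix protein that TGF-beta induces, read between 13.92 and 14.36, with the 4 mg/kg arrays lowest and log2 -0.21 from vehicle.

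The largest difference of the list from vehicle was, at each dose, in an integrin subunit. ITGB8, the beta subunit that pairs with alpha V and takes part in the activation of latent TGF-beta, read 9.05 and 8.25 with vehicle, 10.38 and 10.64 at 4 mg/kg, then 10.47 and 10.71 at 20 mg/kg. All 4 treated arrays lay above both vehicle arrays, by 3.86-fold at 20 mg/kg (log2 1.95, SE 0.32, adjusted p = 0.0679) and 3.64-fold at 4 mg/kg (log2 1.86, SE 0.32, adjusted p = 0.166), and the doses overlapped. The vehicle arrays differed most among the groups (SD 0.57, against 0.18 at 4 mg/kg and 0.17 at 20 mg/kg), and without vehicle replicate 2 the differences were 1.55 (adjusted p = 0.114) and 1.46 (adjusted p = 0.195), while without vehicle replicate 1 they were 2.35 (adjusted p = 0.0408) and 2.26 (adjusted p = 0.0515). ITGAV, the alpha V subunit, was also higher in all treated arrays than in either vehicle array, at 12.90 and 12.35 with vehicle, 13.85 and 13.84 at 4 mg/kg, then 13.67 and 13.83 at 20 mg/kg. Its treated arrays were 2.18-fold higher at 20 mg/kg (log2 1.12, SE 0.21, adjusted p = 0.082) and 2.33-fold at 4 mg/kg (log2 1.22, SE 0.21, adjusted p = 0.166), and did not pass. Both ITGAV and ITGB8 passed at 20 mg/kg with centred or quantile-normalized arrays and without genes tied in all groups. ITGB8 also did so at a mean log2 of at least 6. At 4 mg/kg both passed with centred arrays. Without vehicle replicate 1 ITGAV passed at both doses, at 1.40 (adjusted p = 0.0323) and 1.50 (adjusted p = 0.0402), and without vehicle replicate 2 it was at 0.85 and 0.95. Over the alternatives ITGAV ran from 0.85 to 1.40 at 20 mg/kg and ITGB8 from 0.37, as the mean of all its probe sets, to 2.35. Only 1 of the 5 probe sets of ITGB8 was above the filter, and ITGAV had a single probe set.

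ITGA2, the alpha subunit of a collagen receptor, and ITGA6, which binds laminin, were highest at 4 mg/kg. ITGA2 read 12.43 and 11.77 with vehicle, 13.10 and 13.10 at 4 mg/kg, then 12.29 and 12.15 at 20 mg/kg. Both 4 mg/kg arrays lay above the other 4 (log2 0.998, SE 0.25, adjusted p = 0.211), and 20 mg/kg overlapped vehicle (log2 0.12). ITGA2 passed at 4 mg/kg without vehicle replicate 1 (1.33, adjusted p = 0.04) and with centred arrays. ITGA6 read 12.68 and 12.28 with vehicle, 13.37 and 13.20 at 4 mg/kg, then 12.83 and 13.05 at 20 mg/kg, with all treated arrays above vehicle (log2 0.81, SE 0.18, adjusted p = 0.184; log2 0.46 at the higher dose). Other probe sets went against both: the next brightest gave -0.002 for ITGA2 and -0.23 for ITGA6 at 4 mg/kg, and at the higher dose -0.69 for ITGA2 and -0.44 for ITGA6. The direction of ITGA6 against vehicle, and of ITGA2 at 20 mg/kg, therefore depends on the probe set.

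ITGB4, the partner of alpha 6 in hemidesmosomes, which anchor epithelial cells to the basement membrane, was lower in treated arrays. It read 12.22 and 12.41 with vehicle, 11.66 and 11.93 at 4 mg/kg, then 11.47 and 11.56 at 20 mg/kg. Neither difference passed (log2 -0.80, SE 0.13, adjusted p = 0.0645; log2 -0.52, SE 0.13, adjusted p = 0.209 at the lower dose), but 3 of its 3 probe sets above the filter gave values from -0.89 to -0.80 at 20 mg/kg. ITGB4 passed at 20 mg/kg under the same 4 alternatives as TGFBR2. ITGA5, the alpha subunit of the fibronectin receptor, was dim and read 6.28 and 6.98 with vehicle, 5.95 and 5.95 at 4 mg/kg, then 5.79 and 5.79 at 20 mg/kg. It was 0.84 lower on the log2 scale at 20 mg/kg (adjusted p = 0.168), and its treated replicates were exactly tied, so its residual spread came from the vehicle arrays alone. ITGA5 passed at 20 mg/kg with centred arrays, and at 4 mg/kg without vehicle replicate 1 (-1.02, adjusted p = 0.0327). At 20 mg/kg without vehicle replicate 1 ITGA5 was at -1.19 and passed (adjusted p = 0.0199), and without vehicle replicate 2 it was at -0.49 and passed (adjusted p = 0.0437); with a single vehicle array left, neither fit had any spread of ITGA5 between replicates to draw on. ITGB1, the common partner of most alpha subunits, read between 13.83 and 14.12, with a difference of 0.19 at 20 mg/kg (95% interval -0.09 to 0.48). ITGA3 was at -0.23 and ITGB5 at -0.15 at 20 mg/kg, neither past the test. Without vehicle replicate 1 ITGA3 was at -0.42 for 20 mg/kg and -0.38 for 4 mg/kg, but without vehicle replicate 2 at -0.03 and 0.005. It read 11.44 and 11.82 with vehicle and between 11.40 and 11.45 in the treated arrays, so its difference rested on vehicle replicate 2. Of the 9 tested subunits 4 separated upward from vehicle at 20 mg/kg (ITGA6, ITGAV, ITGB1 and ITGB8), or 44.4%, beside 24.5% of all genes. Another 4 separated downward (ITGA3, ITGA5, ITGB4 and ITGB5), or 44.4%, beside 25.9%, so the subunits did not all separate in the same direction. For ITGB1 2 of 3 probe sets above the filter were higher at 20 mg/kg. The other, with a mean of 11.96, was lower in all treated arrays than with vehicle (log2 -0.22 at 20 mg/kg). The upward order of ITGB1, like that of ITGA6, therefore depends on the probe set. ITGB3 read 2.32, near the floor.

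**Figure D2:**
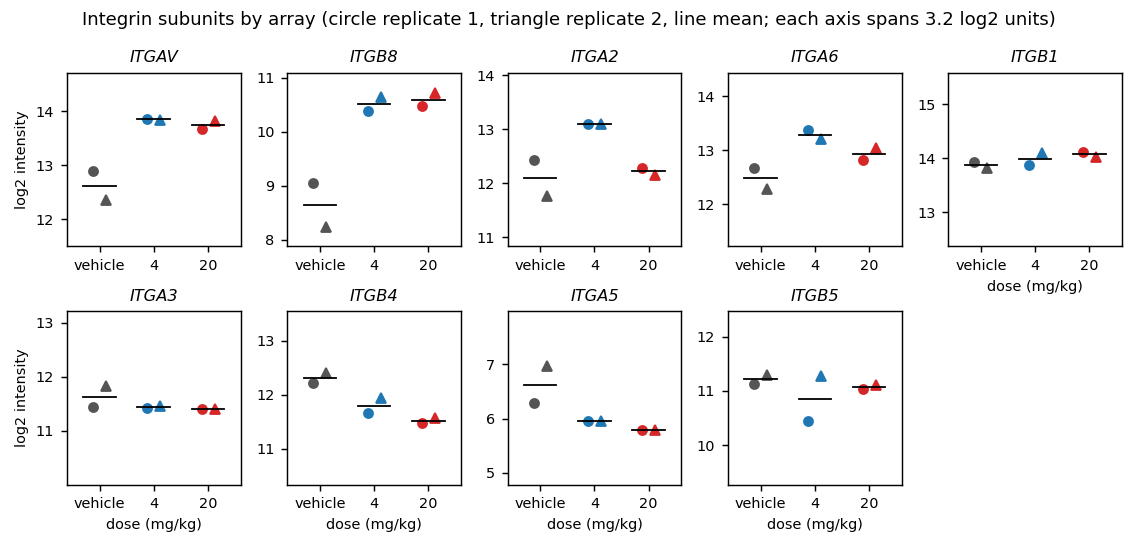
Log2 intensity of the 9 tested integrin subunits in each array (vertical axis) by dose group (horizontal axis); circles are replicate 1, triangles replicate 2 and lines group means, and every panel spans the same number of log2 units. ITGAV and ITGB8 are higher in all treated arrays than in either vehicle array, ITGA2 is highest at 4 mg/kg, and ITGB4 is highest with vehicle.

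None of the laminin chains passed. LAMB1, the beta 1 chain, read 6.58 and 6.46 with vehicle, 6.48 and 6.58 at 4 mg/kg, then 6.16 and 5.95 at 20 mg/kg. The 20 mg/kg arrays were lowest (log2 -0.47, SE 0.10, adjusted p = 0.0972), without passing, though LAMB1 passed with centred or quantile-normalized arrays. LAMB3, a chain of the epithelial laminin that binds alpha 6 beta 4 integrin, ran from 13.55 to 13.84 and was lowest at 4 mg/kg (log2 -0.20, SE 0.05, adjusted p = 0.212). LAMA5 and LAMC1 spanned 0.11 and 0.14 over all 6 arrays, with a difference of 0.03 and 0.00 at 20 mg/kg. LAMA5 read exactly 10.38 in the vehicle and 4 mg/kg arrays, and LAMC1 exactly 11.54 in the vehicle and 20 mg/kg arrays. Values tied across groups in this way do not show that a gene held steady. The next brightest probe set of LAMC1 gave -0.37 at 4 mg/kg and -0.20 at 20 mg/kg.

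Among 5 tested collagens, COL5A1, a fibrillar collagen chain, was the furthest from vehicle. It read 10.43 and 10.78 with vehicle, 9.64 and 9.98 at 4 mg/kg, then 10.14 and 10.11 at 20 mg/kg. All treated arrays lay below vehicle (log2 -0.79, SE 0.18, adjusted p = 0.194; log2 -0.48 at the higher dose), and its 3 probe sets gave values from -0.79 to -0.55 at 4 mg/kg. COL6A1, a chain of microfibrillar collagen, was lowest at 4 mg/kg, at 11.24 and 11.60 with vehicle, 10.63 and 10.97 at 4 mg/kg, then 11.50 and 11.30 at 20 mg/kg. Its difference was log2 -0.62 (SE 0.20, adjusted p = 0.265) at 4 mg/kg and -0.01 at 20 mg/kg, and its other probe sets above the filter gave -0.24 at both doses, and 0.03 and 0.85. COL4A2, a basement membrane chain, was log2 -0.44 from vehicle at 20 mg/kg and log2 -0.34 at 4 mg/kg. Its partner chain COL4A1, at -0.11 and 0.08, did not separate the groups. COL12A1 lay between 7.01 and 7.29, with 0.13 and 0.17. Neither dose passed for any collagen.

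The matrix protein THBS1 had the largest difference between the doses. It encodes thrombospondin 1, which binds CD36 and CD47, restrains vessel growth and can activate latent TGF-beta. THBS1 read 10.72 and 10.39 with vehicle, 11.04 and 11.17 at 4 mg/kg, then 9.19 and 9.05 at 20 mg/kg. The 20 mg/kg arrays lay below all others and the 4 mg/kg arrays above all others. THBS1 fell 2.70-fold from vehicle at 20 mg/kg (log2 -1.43, SE 0.14, adjusted p = 0.0326). It was log2 0.55 (SE 0.14, adjusted p = 0.211) at 4 mg/kg, and the 3.96-fold difference between the doses was just over the threshold (log2 -1.98, SE 0.14, adjusted p = 0.0507). The call against vehicle was kept without vehicle replicate 1 (-1.27, adjusted p = 0.0408) and lost without vehicle replicate 2 (-1.59, adjusted p = 0.0618), without either 4 mg/kg array (-1.43, adjusted p = 0.0892), without 20 mg/kg replicate 1 (-1.50, adjusted p = 0.148) and without 20 mg/kg replicate 2 (-1.36, adjusted p = 0.135). With the next brightest probe set THBS1 was at -1.21 (adjusted p = 0.12) and at 4 mg/kg at -0.53, opposite to the brightest, so the higher level at 4 mg/kg depends on the probe set. A dim probe set, the one left when sets that may bind several transcripts are dropped, read 4.51 on average and 0.09 at 20 mg/kg.

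On their brightest probe sets the other matrix genes were high and lay lowest at 4 mg/kg, except for fibronectin. MMP2, a gelatinase that cuts type IV collagen, read 12.30 and 12.31 with vehicle, 11.90 and 11.73 at 4 mg/kg, then 12.24 and 12.19 at 20 mg/kg. It was log2 -0.49 (SE 0.07, adjusted p = 0.15) against vehicle and log2 0.40 (SE 0.07, adjusted p = 0.145) for 20 against 4 mg/kg. SPARC, a collagen-binding glycoprotein, had the same order, at 11.61 and 11.57 with vehicle, 11.30 and 11.20 at 4 mg/kg, then 11.60 and 11.57 at 20 mg/kg, with log2 -0.34 (SE 0.05, adjusted p = 0.15) at 4 mg/kg and -0.01 at 20 mg/kg. LOXL2, an enzyme that crosslinks collagen, read 11.66 and 11.88 with vehicle, 10.87 and 11.23 at 4 mg/kg, then 11.59 and 11.47 at 20 mg/kg. It was log2 -0.73 (SE 0.16, adjusted p = 0.189) at 4 mg/kg and log2 -0.25 at 20 mg/kg. TNC, tenascin C, was log2 -0.35 at 4 mg/kg and -0.03 at 20 mg/kg on a probe set near 13.60. A second probe set of TNC, with a mean log2 of 5.32, gave -1.88 at 20 mg/kg and passed (adjusted p = 0.0369). FN1, fibronectin, ran from 13.18 to 13.64, with log2 0.25 at 20 mg/kg (95% interval -0.12 to 0.63), and 4 of its 6 probe sets above the filter were higher there. None of MMP2, SPARC, LOXL2, TNC and FN1 passed either test against vehicle on its brightest probe set. The fibroblast marker FAP had the same low point at 4 mg/kg (log2 -0.63 from vehicle and 0.44 for 20 against 4 mg/kg), while COL1A1, COL1A2 and COL3A1 overlapped between those groups, and the part of fibroblast RNA in these values was not tested.

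**Figure D3:**
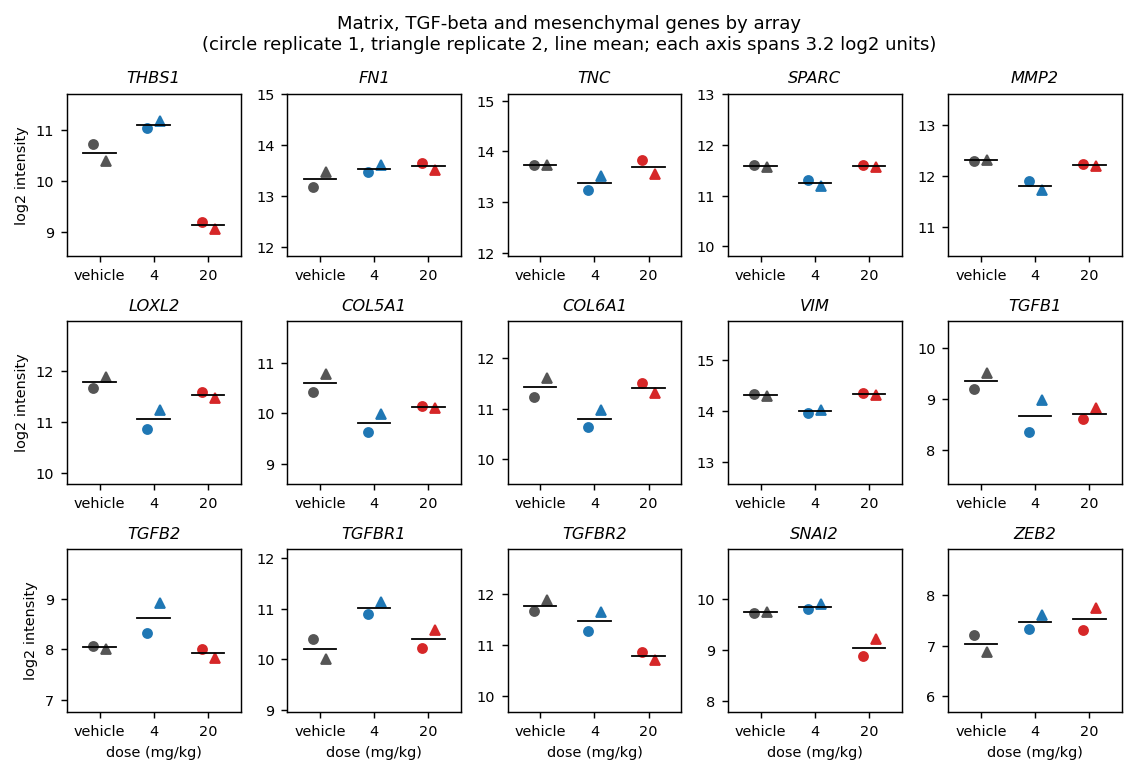
Log2 intensity of 15 matrix, TGF-beta and mesenchymal genes in each array (vertical axis) by dose group (horizontal axis), drawn as circles for replicate 1, triangles for replicate 2 and lines for group means, with the same span in every panel. THBS1 is highest at 4 mg/kg and lowest at 20 mg/kg, while MMP2, SPARC, LOXL2, COL6A1 and VIM dip at 4 mg/kg.

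The 4 tested genes of actin filaments and the adhesion plaque were each lower at 20 mg/kg than with vehicle and than at 4 mg/kg, without overlap of arrays. Of all tested genes 25.9% lay lower without overlap against vehicle and 22.8% against 4 mg/kg. VCL, vinculin, which bridges talin and actin, read 11.79 and 11.84 with vehicle, 11.60 and 11.78 at 4 mg/kg, then 11.03 and 11.14 at 20 mg/kg. VCL fell 1.66-fold (log2 -0.73, SE 0.08, adjusted p = 0.0404), and was log2 -0.13 at 4 mg/kg and log2 -0.60 (SE 0.08, adjusted p = 0.119) between the doses. The VCL call was lost on leaving out any 1 array: it was at -0.76 (adjusted p = 0.0817) without vehicle replicate 1, -0.70 (adjusted p = 0.151) without vehicle replicate 2, -0.73 (adjusted p = 0.0685) without either 4 mg/kg array, -0.67 (adjusted p = 0.178) without 20 mg/kg replicate 1 and -0.79 (adjusted p = 0.133) without 20 mg/kg replicate 2. TLN1, talin, which binds integrin tails, read 9.84 and 10.04 with vehicle, 9.58 and 9.78 at 4 mg/kg, then 9.16 and 9.42 at 20 mg/kg. Its 20 mg/kg arrays were the lowest 2 (log2 -0.65, SE 0.14, adjusted p = 0.103). ACTN1, the actin crosslinker alpha-actinin, read 13.43 and 13.23 with vehicle, 13.24 and 13.38 at 4 mg/kg, then 12.65 and 12.94 at 20 mg/kg, again lowest at 20 mg/kg (log2 -0.54, SE 0.14, adjusted p = 0.131). The filament protein gene TPM1, tropomyosin, read 12.71 and 12.87 with vehicle, 12.54 and 13.01 at 4 mg/kg, then 12.22 and 12.27 at 20 mg/kg, with log2 -0.55 (SE 0.18, adjusted p = 0.192). TLN1, ACTN1 and TPM1 did not pass. Each did pass with centred arrays, where 9.1% of all genes were called lower. TLN1 also passed after quantile normalization, and ACTN1 on averaging every probe set of the gene. All 3 probe sets of ACTN1 and of TPM1 above the filter were lower at 20 mg/kg, from -0.96 to -0.54 and from -0.95 to -0.50. Over all alternatives the 4 genes stayed below 0 at 20 mg/kg, with a highest value of -0.22, for TLN1. Their median difference was -0.60 at 20 mg/kg and -0.07 at 4 mg/kg, beside 0.00 over all genes at both.

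The position of each group among the 6 arrays sums up these orders; it was counted after the values were seen. Both 20 mg/kg arrays lay below the other 4 in 12 of the 39 genes, or 30.8%, beside 15.2% of all tested genes: SNAI2, NT5E, TGFBR2, ITGA3, ITGA5, ITGB4, LAMB1, THBS1, ACTN1, TPM1, TLN1 and VCL. They lay above the other 4 in none of the 39, beside 10.1% of all genes, though in 1 after quantile normalization and 2 with centred arrays. Both 4 mg/kg arrays lay below the other 4 in 9 genes, or 23.1%, beside 2.85%: VIM, TGFBI, LAMB3, COL5A1, COL6A1, SPARC, TNC, MMP2 and LOXL2. This background was 9.04% under quantile normalization, where 9 of the 39 had that order, and 11.0% for centred arrays, where 10 of the 39 had it. The order often rested on the brightest probe set. Another set above the filter was lowest at 20 mg/kg for TNC and read 6.44 in all 6 arrays for MMP2. Those of VIM, SPARC and COL6A1 did not have the order either. For COL5A1 the next brightest set had it and the dimmest did not. The 4 mg/kg arrays lay above the other 4 in 8 genes, or 20.5%, beside 8.24%: SNAI2, NT5E, TGFB2, TGFBR1, ITGA2, ITGA6, ITGAV and THBS1. Centring moved all genes at 4 mg/kg against vehicle by a median of log2 -0.0988, so this count and its background can also depend on the scaling. For NT5E, TGFB2, ITGA2, ITGA6 and THBS1 another probe set above the filter gave a value below 0 against vehicle at that dose. For ITGA2 that value was only -0.002, and for TGFB2 it came from a set tied in every array but vehicle replicate 2. Both vehicle arrays lay above all treated arrays in 10 genes, or 25.6%, beside 12.1%. They lay below them in 5, or 12.8%, beside 16.6%: ZEB2, ITGA6, ITGAV, ITGB8 and COL12A1.

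Where a gene had several probe sets above the filter, they could disagree. For ITGB4, COL5A1, COL4A2 and ACTN1 all probe sets kept 1 sign at both doses. For CD44 all 10 were below 0 at 20 mg/kg, from -0.50 to -0.004, but at 4 mg/kg they ran from -0.65 to 0.17. At 20 mg/kg 3 of 4 were below 0 for THBS1, and for ITGA2, ITGA6 and COL4A1 the second of the pair had the opposite sign. Array probe sets can read different ends or splice forms of a transcript, and which of these applies was not tested.

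**Figure D4:**
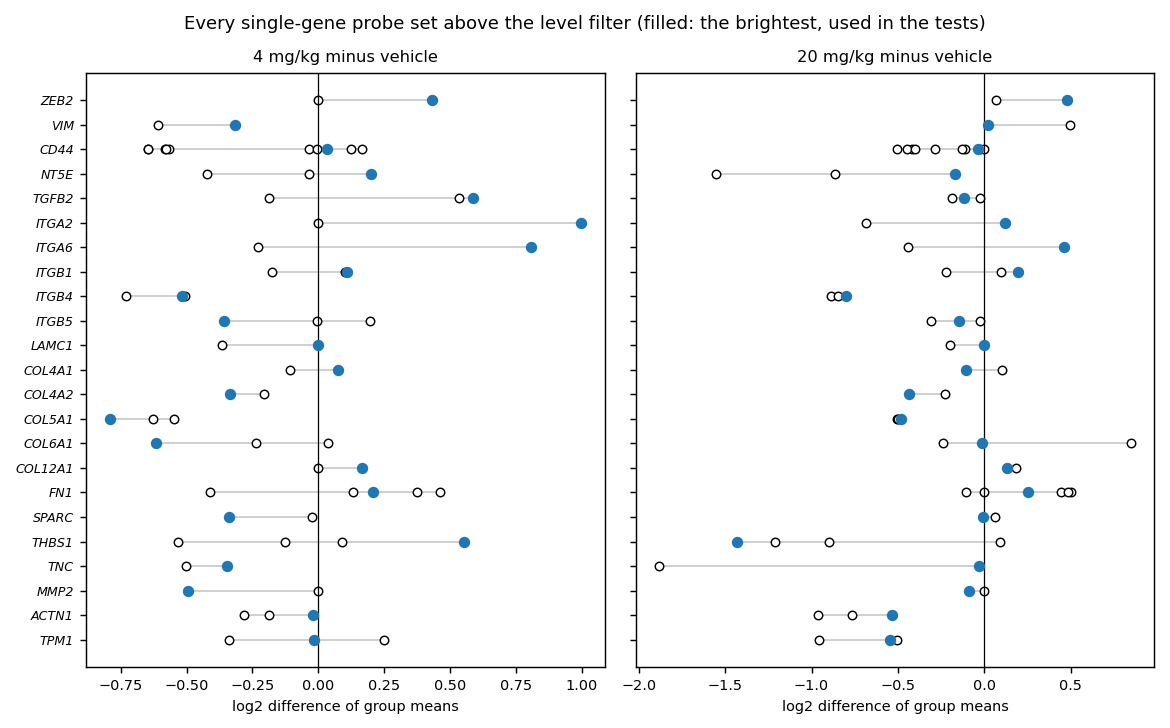
Differences of group means from vehicle (horizontal axes, log2) for every single-gene probe set above the level filter, for genes with more than 1 such set (rows), at 4 mg/kg and 20 mg/kg; the filled point is the brightest set, which the tests used. The sets of ITGB4 and COL5A1 lie close together, whereas those of THBS1 at 4 mg/kg run from -0.53 to 0.55 and those of TNC at 20 mg/kg from -1.88 to -0.03.

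Other genes of these pathways were read from lists written with earlier results of these data known, and their counts stand beside 2.07% of all tested genes called lower and 2.26% called higher at 20 mg/kg. Of 22 tested adaptor genes of integrin adhesion, 2 fell at 20 mg/kg and none rose, with a median of -0.25. They were ZYX, zyxin, a LIM protein of adhesions and stress fibres (log2 -1.11, SE 0.10, adjusted p = 0.0304), and TNS4, a tensin that binds integrin tails (log2 -1.28, SE 0.09, adjusted p = 0.0218). ZYX read 10.19 and 10.44 with vehicle, 9.71 and 9.79 at 4 mg/kg, then 9.20 and 9.21 at 20 mg/kg, so the groups lay in dose order without overlap. TNS4 read 10.32 and 10.40 with vehicle, 9.49 and 9.54 at 4 mg/kg, then 8.98 and 9.19 at 20 mg/kg, likewise without overlap. Of 12 tested cytoskeleton genes that respond to SRF or YAP, 2 fell and none rose, with a median of -0.44: FHL2, a LIM coactivator (log2 -1.33, SE 0.12, adjusted p = 0.032), and CCN1, a matricellular integrin ligand (log2 -1.12, SE 0.12, adjusted p = 0.0386). Of 16 further TGF-beta pathway genes 1 fell, SMURF2, a ubiquitin ligase that acts on the receptor and SMAD proteins (log2 -0.54, SE 0.06, adjusted p = 0.0382), with a median of -0.03. Of 9 further laminin and basement membrane genes 1 rose, NID1, nidogen, which links laminin to type IV collagen (log2 0.31, SE 0.03, adjusted p = 0.0312), with a median of 0.05. None of 6 further integrin subunits passed, where the largest difference at 20 mg/kg was ITGB2 at -0.36 (adjusted p = 0.528). At 4 mg/kg, and between the doses, no gene of these 5 lists passed.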

How the data were processed

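RNA of whole xenograft tumours was read on 6 arrays, 2 for each dose group. The authors deposited 1 normalized intensity per probe set and array on a linear scale, for which the submitters' processing notes name GCRMA and R 2.10.0. GCRMA corrects background by probe sequence and sets arrays to a common distribution, and it gives a floor of 4.578 that 39.4% to 40.1% of probe sets share in an array. Log2 of these deposited values was taken with no pseudocount. Of 54675 probe sets, 41097 named 1 gene, 1801 several and 11777 none, by the platform annotation. Each gene was read by its brightest single-gene probe set, and genes with a mean log2 of at least 4 were tested.

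Group means were fitted to all 6 arrays with limma 3.58.1 (R 4.3.3), with 3 residual and 0.723 prior degrees of freedom. Two-sided p-values were adjusted by Benjamini-Hochberg over 10271 genes within each comparison, at a threshold of 0.05, and intervals are unadjusted 95% intervals. The code was tested on simulated data. Precision is limited by having 2 arrays a group. The members and lists were chosen with earlier results of these data known. All 6 values are given for members that passed or differed by at least 0.5 between groups, and also for ZEB2, VIM, NT5E, LAMB1, SPARC and MMP2, chosen after their values were seen; others are given by ranges. Other lists are described by counts and by genes that passed, or the most changed where none did. Alternatives covered normalization, a pseudocount of 16, level filters, probe set choice, a replicate block, tied genes and leaving out arrays.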

Additional observations from a re-analysis of the deposited data

How the results depend on the processing

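Over 117 differences (39 genes, 3 comparisons) and 17 alternatives, 1730 of 1899 values neither changed sign nor crossed the threshold. A difference of exactly 0 counted as no change of sign. Of the rest, 59 gained a call, 19 lost one, 90 changed sign with neither side called, and 1 reversed. The last was THBS1 at 20 mg/kg, at 0.0924 without probe sets whose names end in _s_at, _x_at or _a_at. Against vehicle at 20 mg/kg the genes called higher, none as reported, numbered 2 after quantile normalization, 2 with centred arrays, 1 at a mean log2 of at least 6 and 2 without genes tied in all 3 groups, beside 8.14%, 9.96%, 4.0% and 4.71% of all genes. Those called lower, 2 as reported, numbered 7, 13, 4 and 5 under the same settings (beside 6.82%, 9.1%, 3.63% and 3.7%), 1 with the next brightest probe set (1.21%), 3 on averaging every probe set of a gene (1.9%), and 0 with no level filter, without the _s_at, _x_at and _a_at sets, with the replicate block and with only the 4 arrays compared (beside 0.177%, 1.64%, 0.555% and 0.662%). At 4 mg/kg centred arrays gave 4 higher and 6 lower, beside 5.03% and 2.42%. Between the doses the genes called lower numbered 4, 3, 1 and 1 under quantile normalization, centred arrays, the stricter filter and without tied genes, beside 1.77%, 2.6%, 0.39% and 0.544%. Leaving out 1 array at a time gave from 0 to 2 higher and 0 to 3 lower at 20 mg/kg, 0 to 2 of each at 4 mg/kg and 0 to 0 between the doses. Deviations of same-numbered arrays correlated at 0.146, -0.118 and 0.127. With 2 arrays a group, such low values cannot show whether the numbers pair the arrays. The replicate block called 0 of the 39 in every comparison. Fewer genes tested (stricter filter, no tied genes) or fewer arrays enter by construction, and otherwise the cause was not tested. Genes near the floor have no measurable order.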
